A study of Mus musculus with 2 samples.

Results

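Slc1a2, Slc1a3, Glul, Slc6a11 and Slc7a10, with which astrocytes take up and recycle transmitter amino acids, were described in single cells of the mouse dentate gyrus, a hippocampal region where neurons are born in the adult. They are 5 of the 17592 genes in the deposited table and were chosen by name for their role. The cells came from C57BL/6 mice in 2 libraries, an old library (16 months) and a young library (3 months), with 1 library at each age. Per the labels' protocols the dissected tissue was dissociated with papain, cells that excluded propidium iodide were sorted as live, and the 10x Genomics 3' v3 chemistry counted the 3' end of each transcript by unique molecular identifiers (UMIs). No genotype, treatment or number of animals is given in the sources used here.

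Astrocytes end the action of glutamate at synapses by taking it up through sodium-driven transporters, chiefly Slc1a2 (GLT-1) and Slc1a3 (GLAST). Glul (glutamine synthetase) then turns glutamate and ammonia into glutamine, which neurons take back to make new glutamate and GABA. Slc6a11 (GAT-3) carries GABA into astrocytes, and Slc7a10 (Asc-1) exchanges small neutral amino acids such as glycine and D-serine across the membrane.

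The old library held 1430 cells with 7451506 UMIs and the young library 2463 cells with 16217559 UMIs. Of the old library's cell barcodes, 1401 (98.0%) were also in the young library. Cells with almost no mitochondrial transcripts, which stand apart from brain classes, made up 289 old and 1315 young cells and were set aside. The remaining 1141 old and 1148 young brain cells shared 1113 barcodes, so the 2 libraries are mostly 2 readings of the same cells. Levels below are therefore given with the young library as the main reading and the old library beside it, and neither a difference nor a likeness between the ages can rest on them. With 1 library at each age there was no replicate check and no test between ages or cell classes. All intervals are 95% and cover counting error only.

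Astrocyte-like cells were defined without the 5 genes or any gene of the wider pathway described below. They were 311 old and 304 young cells, in a smaller cluster with 11 and a larger one with 12 of 12 astrocyte markers such as Aldoc, Gja1 and Aqp4. The summed level of those markers was 152 and 155 UMIs per 10,000 in old and young astrocyte-like cells. In the other named classes it lay between 1.51 and 17.5 in the old library and between 0.436 and 18.3 in the young library, highest in oligodendrocyte precursor-like cells in both. Over the 43 precursor-like barcodes in both libraries, Gpr37l1 made up 327 of 577 old and 293 of 497 young marker UMIs, whereas Gja1 had 3 and 1 and Aqp4 2 and 0. Astrocyte-like cells were shallow, with medians of 2026 and 1912 UMIs in old and young cells, against 8869 and 7914 in microglia-like cells. The sort and the dissociation can set which cells, and which of their transcripts, were read.

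To show a RefSeq start of each of the genes whose patterns differ most below, 3 windows are printed. All 5 genes matched RefSeq windows of 300 bases, from 250 before to 50 after the start, on GRCm38.p6. The printed windows are those of Slc1a2 (chr2:102706188-102706487, plus strand), Slc1a3 (chr15:8710758-8711057, minus strand) and Glul (chr1:153899679-153899978, plus strand). Capitals mark CCAAT and TATAAA or their reverse complements, ATTGG and TTTATA.
Slc1a2: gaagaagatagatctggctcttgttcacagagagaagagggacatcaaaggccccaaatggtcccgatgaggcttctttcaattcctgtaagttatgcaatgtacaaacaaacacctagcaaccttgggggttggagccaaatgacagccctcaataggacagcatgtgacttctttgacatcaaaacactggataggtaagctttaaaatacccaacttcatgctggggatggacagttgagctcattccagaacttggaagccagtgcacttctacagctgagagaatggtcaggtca
Slc1a3: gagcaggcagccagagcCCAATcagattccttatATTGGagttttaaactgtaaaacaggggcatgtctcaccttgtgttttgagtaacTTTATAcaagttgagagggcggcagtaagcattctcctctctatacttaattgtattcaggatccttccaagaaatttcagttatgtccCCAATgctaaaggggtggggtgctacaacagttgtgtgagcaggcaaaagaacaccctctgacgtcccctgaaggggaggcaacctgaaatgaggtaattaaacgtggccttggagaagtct
Glul: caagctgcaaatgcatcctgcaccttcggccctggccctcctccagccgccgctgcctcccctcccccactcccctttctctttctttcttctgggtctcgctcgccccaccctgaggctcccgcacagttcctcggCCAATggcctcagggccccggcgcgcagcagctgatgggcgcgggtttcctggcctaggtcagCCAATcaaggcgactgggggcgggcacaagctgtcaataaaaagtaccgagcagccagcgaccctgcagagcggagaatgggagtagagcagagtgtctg
The Glul window held CCAAT 2 times, each overlapping a match to GCCAA, the reverse complement of the nuclear factor I core TTGGC, and 1 GC box (GGGCGG). The Slc1a3 window held CCAAT or ATTGG 3 times, TTTATA 1 time, GGGCGG 1 time and ATTGT, the reverse complement of the SOX core ACAAT, 1 time. The Slc1a2 window held GCCAA 1 time and none of the other motifs. The Slc6a11 and Slc7a10 windows held the GC box on either strand 4 and 2 times and none of the others. Of 32851 windows of the same length, 37.4% held CCAAT, 46.7% TTGGC, 13.6% TATAAA, 35.7% GGGCGG and 31% ACAAT, on either strand. These libraries read 3' ends and do not show which start was used, and the start behind the Slc1a2 window is that of 2 of its 12 GENCODE transcripts. The Slc1a2 gene begins at base 102658659 in GENCODE, so this window lies inside the gene and not at its first start. The starts behind the Slc1a3 and Glul windows match none of their 8 and 5 GENCODE transcripts, and lie 43 and 15 bases from the nearest.

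The glutamate transporters come first. Slc1a2 lies on chromosome 2 (102658659 to 102790784, plus strand, GRCm38). Its level, the summed UMIs per 10,000 UMIs of a class, was 80.1 (78.3 to 81.8) in old and 85.9 (84.0 to 87.9) in young astrocyte-like cells. The young value rested on 7777 UMIs. Nearly every astrocyte-like cell had a Slc1a2 UMI, at 99.7% in both libraries. The middle 80% of young astrocyte-like cells ran from 33.5 to 173 UMIs per 10,000, with a median cell at 92.8.

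No other class came near this level. In the young library Slc1a2 had 5.22 (4.49 to 6.03) in oligodendrocyte precursor-like cells, 3.61 (3.07 to 4.21) in neuroblast or immature granule neuron-like cells and 3.03 (2.55 to 3.58) in endothelial-like cells. In the old library these 3 classes had 5.51, 3.56 and 3.06. The young intervals of neuroblast-like and endothelial-like cells overlapped. Of the endothelial UMIs 69.8% came from 3 of 129 cells, and without these 3 cells the level was 0.946. Smooth muscle-like, pericyte-like, mature oligodendrocyte-like and microglia-like cells had 1.40, 1.03, 0.955 and 0.824, with overlapping intervals between neighbours. In the first 3 of these classes 3 cells held 92.3%, 54.2% and 58.8% of the UMIs, and without them the levels were 0.140, 0.485 and 0.414. The 10 perivascular macrophage-like cells had 0 UMIs, against 1.51 on 8 UMIs in 11 old cells. Together the astrocyte-like cells, 26.5% of young brain cells, held 89.1% (88.4 to 89.7) of the Slc1a2 UMIs of all young brain cells. Their level was 50.0 times (46.8 to 53.6) that of the other brain cells. Here and below, these other brain cells include 65 young cells of an unnamed cluster, which had a Slc1a2 level of 4.66. No cluster was named as mature neurons, interneurons or ependymal cells, although markers of these were looked for. Such shares and ratios therefore hold against the classes found here and not against the whole tissue. The largest part of the UMIs of the other brain cells, 2947422, came from microglia-like cells.

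Microglia-like cells were taken as a background for the share of cells with a UMI. That they lack Slc1a2 was assumed and not shown. A Slc1a2 UMI was found in 58.6% of old and 36.7% of young microglia-like cells. Per 100 UMIs of astrocyte markers, young microglia-like cells had 62.0 UMIs of Slc1a2 and young astrocyte-like cells 55.4, a ratio of 1.12 (0.980 to 1.27). The interval of this ratio includes 1, and the part of free astrocyte RNA in the microglial counts was not tested. In neuroblast-like cells the same ratio was 2.36 (2.01 to 2.76). Of the Slc1a2 UMIs of young neuroblast-like cells 37.3% came from 3 of 58 cells, and without these 3 cells the level was 2.41. No such ratio is given for oligodendrocyte precursor-like cells, whose marker sum is mostly Gpr37l1.

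Slc1a3 lies on chromosome 15 (8634124 to 8710764, minus strand). Its level was 29.99 (28.9 to 31.1) in old and 32.3 (31.1 to 33.5) in young astrocyte-like cells, and 95.5% and 95.1% of these cells had a UMI. The next class in the young library was the neuroblast or immature granule neuron-like class at 4.44 (3.84 to 5.10), followed by oligodendrocyte precursor-like cells at 2.95 (2.41 to 3.57) and microglia-like cells at 1.83 (1.68 to 1.99). In the old library these 3 classes had 3.99, 2.66 and 1.86. None of the 4 young intervals overlapped. Mature oligodendrocyte-like, pericyte-like, smooth muscle-like and endothelial-like cells had 1.15, 0.899, 0.538 and 0.414, each overlapping the next, and perivascular macrophage-like cells had 0 UMIs. Without the 3 highest cells the endothelial-like value was 0.156, and all 5 smooth muscle UMIs came from 3 cells.

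A larger share of Slc1a3 than of Slc1a2 UMIs lay outside the astrocyte-like cells. These held 74.3% (72.9 to 75.6) of its young brain UMIs, and their level was 17.7 times (16.5 to 19.0) that of the other brain cells. Measured against astrocyte markers, the Slc1a3 count was 7.73 times (6.66 to 8.92) that of astrocyte-like cells in neuroblast-like cells and 6.61 times (6.02 to 7.25) in microglia-like cells. In the old library these ratios were 6.56 and 4.32. A UMI was found in 69.9% of old and 67.1% of young microglia-like cells. With each cell thinned to 2000 UMIs, the young shares were 97.3% of 147 astrocyte-like, 43.1% of 51 neuroblast-like and 28.5% of 354 microglia-like cells. Among the 58 young neuroblast-like cells 60.3% had a UMI before thinning, and the 3 highest cells held 25.8% of the UMIs.

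**Figure D1:**
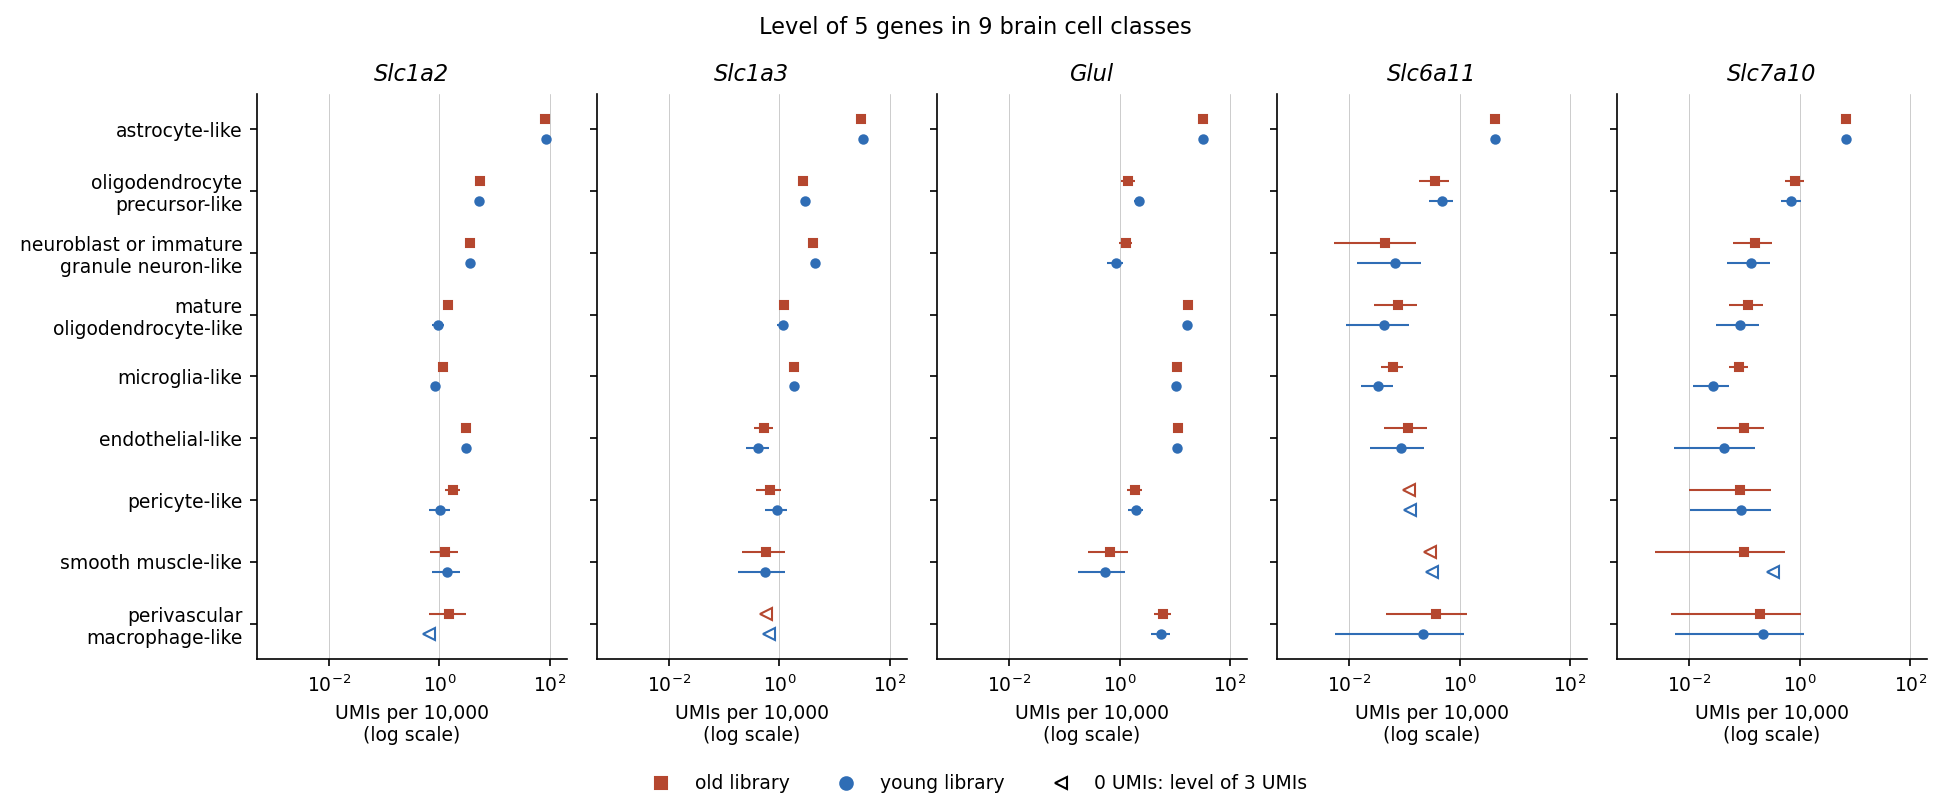
Level of each gene (UMIs per 10,000 UMIs of the class, log scale) in the 9 named brain classes, with the old library (squares) above the young library (circles) in each class. Bars are exact Poisson 95% intervals, and open triangles mark the level that 3 UMIs would give where a class had 0. All 5 genes are highest in astrocyte-like cells, while Glul also stands at 16.5 in mature oligodendrocyte-like and above 10 in endothelial-like and microglia-like cells of the young library.

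Glul, the glutamine-forming enzyme, lies on chromosome 1 (153899944 to 153909723, plus strand). Unlike the transporters, it had high levels in several other classes. Its level was 32.2 (31.1 to 33.4) in old and 32.4 (31.2 to 33.6) in young astrocyte-like cells. Mature oligodendrocyte-like cells had 17.4 (16.5 to 18.3) in the old and 16.5 (15.6 to 17.5) in the young library, with a Glul UMI in 94.9% and 92.4% of cells. Endothelial-like cells had 11.6 and 10.9 (young 9.94 to 11.9), and microglia-like cells 10.8 and 10.5 (young 10.1 to 10.8), so these 2 classes did not differ beyond their intervals in the young library.

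Perivascular macrophage-like cells had 6.05 in the old and 5.67 in the young library, although 84.6% of the 26 young UMIs came from 3 of 10 cells, without which the level was 1.998. Oligodendrocyte precursor-like cells had 1.45 in the old and 2.27 in the young library. The young value was 0.868 without the 9 cells called doublets, and 3 cells held 60.0% of the UMIs. Pericyte-like, neuroblast-like and smooth muscle-like cells of the young library had 1.97, 0.851 and 0.538.

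Astrocyte-like cells therefore held only 36.6% (35.6 to 37.7) of the Glul UMIs of young brain cells. Their level was 3.54 times (3.38 to 3.71) that of the other brain cells. Against astrocyte markers, the Glul count was 37.6 times (35.8 to 39.6) that of astrocyte-like cells in microglia-like cells, 29.6 times (27.7 to 31.7) in mature oligodendrocyte-like cells and 15.4 times (14.0 to 16.9) in endothelial-like cells. In the old library these ratios were 23.4, 22.4 and 13.97, with more astrocyte marker UMIs in microglia-like cells. Htra1 made up 143 of 287 old and 122 of 189 young marker UMIs of the 78 mature oligodendrocyte-like barcodes in both libraries. In those 3 classes Glul thus stood far above the ratio to astrocyte markers of astrocyte-like cells. At a finer clustering the endothelial-like cells split into 34 and 95 young cells, both with 9 of 9 endothelial markers. The smaller cluster, led by Ly6c1, Ly6a and Cldn5, had a Glul level of 18.9 (16.8 to 21.3), and the larger, led by Cldn5, Bsg and Itm2a, had 7.07 (6.16 to 8.06). The old library gave 20.5 and 7.25. The median depths of these young cells were 4446 and 2855 UMIs.

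Slc6a11, the GABA transporter, lies on chromosome 6 (114131241 to 114249952, plus strand). Its level was 4.35 (3.95 to 4.79) in old and 4.45 (4.03 to 4.91) in young astrocyte-like cells. A UMI was found in 46.3% of old and 48.7% of young astrocyte-like cells, against 5.48% and 2.70% of microglia-like cells. With cells thinned to 2000 UMIs, which left out 157 young astrocyte-like cells, the young shares were 53.7% of 147 astrocyte-like and 0.847% of 354 microglia-like cells. Oligodendrocyte precursor-like cells were next at 0.363 in the old and 0.482 (0.281 to 0.772) in the young library, and without the 3 highest cells at 0.195 and 0.280. Every other named class of the young library was at or below 0.218, on 10 UMIs or fewer. Pericyte-like and smooth muscle-like cells had 0 UMIs, with upper bounds of 0.158 and 0.397.

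Slc7a10, the neutral amino acid exchanger, lies on chromosome 7 (35186385 to 35201114, plus strand). Its level was 6.83 (6.32 to 7.37) in old and 6.85 (6.32 to 7.41) in young astrocyte-like cells. A UMI was found in 73.6% of old and 74.7% of young astrocyte-like cells, against 6.85% and 2.16% of microglia-like cells. Oligodendrocyte precursor-like cells had 0.817 in the old and 0.709 (0.459 to 1.05) in the young library, and the other named young classes had 0.218 or less on 8 UMIs or fewer.

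Among the brain classes found here, which had no mature neurons, Slc6a11 and Slc7a10 were thus found mostly in astrocyte-like cells. Astrocyte-like cells held 88.3% and 89.8% of the Slc6a11 UMIs, and 88.5% and 91.6% of the Slc7a10 UMIs, of old and young brain cells. Their young levels were 53.8 times (39.6 to 74.6) and 66.7 times (50.8 to 89.1) those of the other brain cells, intervals that overlap that of Slc1a2. The part of astrocyte RNA in the precursor-like values was not tested.

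Of the 5 genes 4 were at least 4-fold higher in astrocyte-like than in other brain cells of the young library, on a log2 scale with a pseudocount of 0.1 UMIs per 10,000. Among all 12336 genes with at least 20 UMIs, 4.35% were. The log2 ratios were 5.56 for Slc1a2, 5.10 for Slc7a10, 4.64 for Slc6a11, 4.07 for Slc1a3 and 1.81 for Glul, which did not reach 4-fold. In the order of all these genes by ratio, Slc1a2 ranked 4, Slc7a10 16, Slc6a11 35, Slc1a3 64 and Glul 637. All 5 genes were detected in 125 of 311 old and 120 of 304 young astrocyte-like cells, and no astrocyte-like cell lacked all 5. Among microglia-like cells 3 of 365 old and 0 of 371 young cells had all 5.

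The wider pathway was described by 43 other genes, of which 40 were in the table and 33 had at least 20 UMIs. Of these 10 were at least 4-fold higher and 3 at least 4-fold lower in astrocyte-like than in other young brain cells, against 4.35% and 4.7% of all genes tested. With a pseudocount of 1 in place of 0.1 the count of higher genes was 2. The median log2 ratio was 0.27 over the 33 genes and 0.01 over all genes.

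Among transporters, 2 of 5 genes of the Slc1 family and cystine exchange were higher. Slc7a11, the cystine-glutamate exchanger, had 4.16 UMIs per 10,000 in astrocyte-like and 0.0739 in other brain cells. Slc1a4, a carrier of small neutral amino acids such as serine and alanine, had 1.66 in astrocyte-like and 0.0847 in other brain cells. Slc1a1, a glutamate transporter (EAAC1) known from neurons, had 0.0332 in astrocyte-like cells against 2.04 in oligodendrocyte precursor-like and 1.94 in endothelial-like cells, a log2 ratio of -1.61 to the other brain cells together.

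Among the GABA, glycine and taurine transporters described here, Slc6a6, which carries taurine, was lower. It had 0.265 in astrocyte-like cells, far below its 14.6 in endothelial-like cells. Slc6a13 (GAT-2) had 0.0111 in astrocyte-like and 1.499 in pericyte-like cells, and the glycine transporter Slc6a9 reached 1.14 in mature oligodendrocyte-like cells.

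Of 7 glutamine transporters 1 was higher and 2 were lower. Slc38a3 (SNAT3), a carrier that can release glutamine from astrocytes, had 2.59 in astrocyte-like cells. It had 2.22 in endothelial-like cells, with 0.794 or less in every other named class. Slc38a2 and Slc7a8 were lower, at 0.398 and 0.0663 in astrocyte-like cells. Their highest levels were 6.54 for Slc38a2 in mature oligodendrocyte-like cells and 1.60 for Slc7a8 in microglia-like cells.

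Of 12 enzymes 5 were higher and none lower. Glud1 (glutamate dehydrogenase) had 5.42 in astrocyte-like cells and at most 1.67 in the other named classes. Abat and Aldh5a1, which break down GABA in sequence, had 0.995 and 0.630 in astrocyte-like cells, and Maob, a monoamine oxidase, 0.663. Psph, the last step of serine synthesis, had 1.78. Phgdh, the first step, had 6.18 in astrocyte-like and 5.97 in mature oligodendrocyte-like cells and was not past 4-fold. Psat1, the step between them, had 1.60 in astrocyte-like and 5.04 in mature oligodendrocyte-like cells. Of the 4 metabotropic receptors Grm3 was higher, at 1.51 in astrocyte-like and 1.24 in mature oligodendrocyte-like cells.

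Several other genes of the list were within 4-fold on the log2 scale with the pseudocount, which pulls low levels together, and had their highest level elsewhere. Slc38a5 and Slc7a5, carriers of glutamine and of large neutral amino acids, had 0.0221 and 0.144 in astrocyte-like cells, against 2.25 and 2.11 in endothelial-like cells. Without the pseudocount the Slc38a5 level was 0.118 times (0.0141 to 0.437) that of all other brain cells. Slc3a2, the heavy chain that partners Slc7a5, Slc7a10 and Slc7a11, had a level of 3.02 in astrocyte-like cells and reached 6.998 in endothelial-like cells. Slc38a1 had 0.376 in astrocyte-like and 1.97 in neuroblast-like cells, and the glutamate receptor Grm5 had 0.122 in astrocyte-like and 1.28 in oligodendrocyte precursor-like cells. The GABA-B receptor gene Gabbr1 was highest in astrocyte-like cells at 3.91, with 2.92 in oligodendrocyte precursor-like cells, and stayed just within 4-fold.

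**Figure D2:**
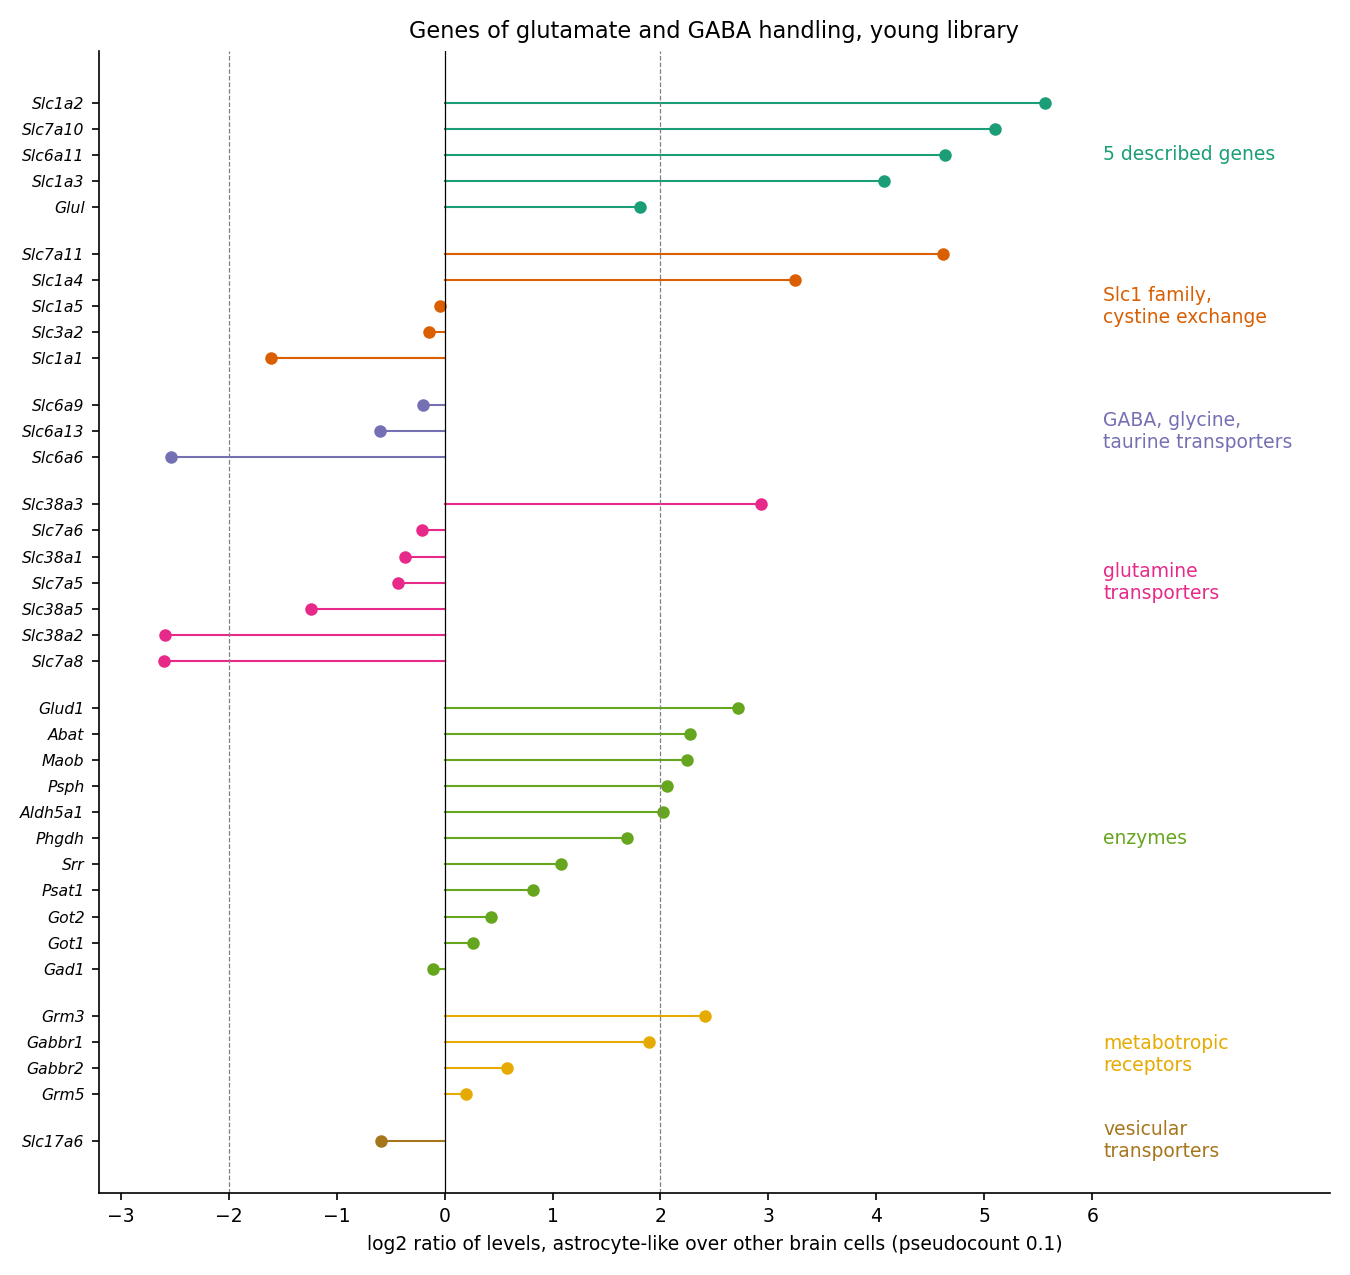
Log2 ratio of levels in astrocyte-like over other brain cells of the young library (pseudocount 0.1), for the 5 described genes and the other pathway genes reported here with at least 20 UMIs. Dashed lines mark 4-fold, which 4 of the 5 genes pass upwards, while Slc38a2, Slc7a8 and Slc6a6 pass it downwards.

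The genes whose levels were most like each gene's were taken over the 7 classes with at least 30 young cells, among 5321 genes with at least 200 UMIs. Pearson's r of the log2 level is a description here, since the 7 points share 1 library and differ in depth. For Slc1a2 they were Gabrb1 (r = 0.997), Acsl6 (0.995) and Pla2g7 (0.981). For Slc1a3 they were Phkg2 (0.982), Snrnp70 (0.981) and Slc25a36 (0.962), none with a level below 0.240 in any of the 7 classes. Pearson's r does not take in the size of a difference. Phkg2 ran from 0.240 to 0.818, Snrnp70 from 1.46 to 8.01 and Slc25a36 from 0.283 to 1.34. Slc1a3 itself ran from 0.414 to 32.3. For Glul they were Ptgr2 (0.961), Neat1 (0.915) and Csf1 (0.913), with Neat1 at 6.62 in astrocyte-like and 8.47 in mature oligodendrocyte-like cells. For Slc6a11 they were Cxcl14 (0.994), Cldn10 (0.994) and Baalc (0.991), and for Slc7a10 Pla2g7 (0.987), F3 (0.986) and Baalc (0.986). Among the 5 genes the closest pair was Slc6a11 and Slc7a10 (0.979), and Glul stood at 0.213 to 0.455 with the other genes.

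Between the 2 astrocyte-like clusters, Glul differed in the direction opposite to the other 4 genes. The smaller of the 2 clusters held 26 old and 24 young cells and was led by Mt3, Aldoc, Mt1 and Hopx. The larger held 285 old and 280 young cells and was led by Clu, Dclk1, Mt3 and Aldoc. In the smaller cluster the Glul level was 68.9 (63.1 to 75.2) in old and 68.9 (62.8 to 75.5) in young cells, against 29.2 and 29.5 in the larger cluster, a young ratio of 2.34 (2.11 to 2.58). The other 4 genes were lower in the smaller cluster.

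Slc1a3 had 13.8 in old and 14.4 in young cells of the smaller cluster, against 31.3 and 33.7 in the larger, a young ratio of 0.427 (0.345 to 0.523). Slc7a10 had 2.03 and 1.78, against 7.23 and 7.26, a young ratio of 0.246 (0.126 to 0.432). Slc6a11 had 2.30 and 2.53, against 4.52 and 4.61, on 17 UMIs in each library of the smaller cluster. Slc1a2 had 66.1 and 70.9, against 81.2 and 87.2, a young ratio of 0.813 (0.739 to 0.892). On the log2 scale with the pseudocount, Glul, Slc1a3 and Slc7a10 were at least 2-fold apart in both libraries. So were 44.3% of 7242 genes tested between the old and 45.9% of 6902 between the young clusters, so differences of this size were common.

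The summed astrocyte markers were 1.12 times (1.06 to 1.19) as high in the smaller as in the larger young cluster. Median depth was 2647 and 1857 UMIs and the median mitochondrial share 9.68% and 6.96% in the smaller and larger young clusters. Of 8 markers fixed for radial glia-like stem cells Hopx was higher in the smaller cluster, at 24.2 against 10.2 in the young library. Hes5 had 4.75 against 3.45 with overlapping intervals. The other 6 had 2 UMIs or fewer in the 24 young cells, and Nes, Lpar1, Tfap2c and Riiad1 had 0.

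**Figure D3:**
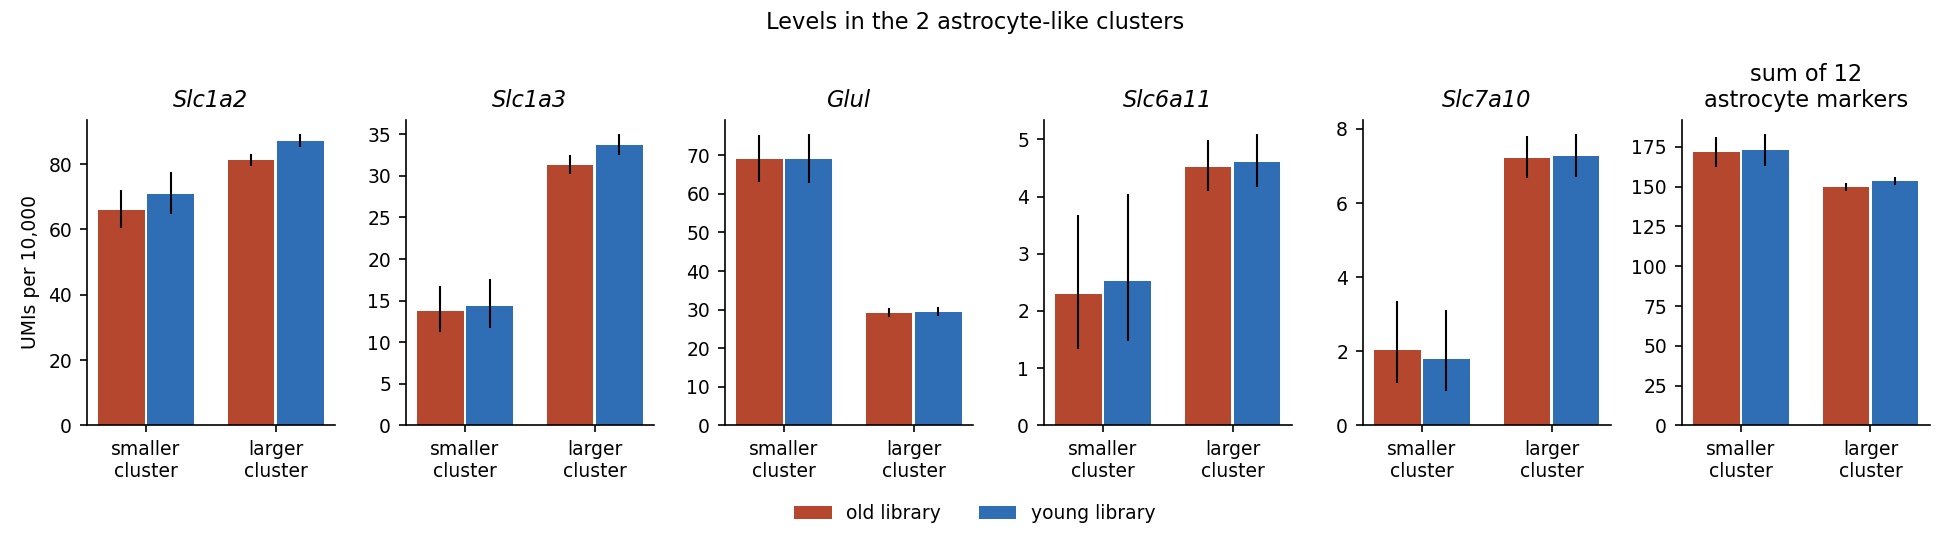
Level (UMIs per 10,000) of the 5 genes and of the sum of 12 astrocyte markers in the smaller and the larger astrocyte-like cluster, for old (left bar) and young (right bar) cells, with exact Poisson 95% intervals. Glul is higher in the smaller cluster, at 68.9 in both libraries, and the other 4 genes are lower there.

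Levels also went with the depth of the cell. The 304 young astrocyte-like cells were put in order of depth and divided into 4 groups of 76 cells, from 787 to 1169 UMIs in the shallowest to 4380 to 11338 in the deepest. Slc1a2 had 123 UMIs per 10,000 (115 to 131) in the shallowest group, then 105 and 89.2, and 74.8 (72.4 to 77.2) in the deepest. Slc7a10 likewise had 12.6 (10.2 to 15.4), 9.03, 6.83 and 5.51 (4.88 to 6.201). Slc6a11 ran the other way, with 2.41 (1.43 to 3.81), 2.32, 4.07 and 5.41 (4.78 to 6.09), as did Glul with 25.1 (21.6 to 28.9), 24.8, 34.2 and 34.4 (32.8 to 36.1). Slc1a3 had 31.4 (27.5 to 35.7), 28.1, 28.5 and 35.1 (33.4 to 36.8), with overlapping intervals at both ends.

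The ratio of the shallowest to the deepest young group was 1.64 (1.53 to 1.77) for Slc1a2, 2.29 (1.79 to 2.90) for Slc7a10, 0.446 (0.260 to 0.719) for Slc6a11, 0.729 (0.623 to 0.848) for Glul and 0.895 (0.777 to 1.03) for Slc1a3. In the old library the 5 ratios were 1.47, 2.28, 0.357, 0.675 and 1.02. Slc7a10 and Slc6a11 were at least 2-fold apart in both libraries. So were 36.8% of 5262 genes tested in the old and 42% of 4927 in the young library. The summed astrocyte markers had 99.9 in the shallowest and 173 in the deepest young group, although Fgfr3 had 11.9 and 5.33. The median mitochondrial share was 3.18% and 10.9% in these groups, and its part in the differences was not tested.

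**Figure D4:**
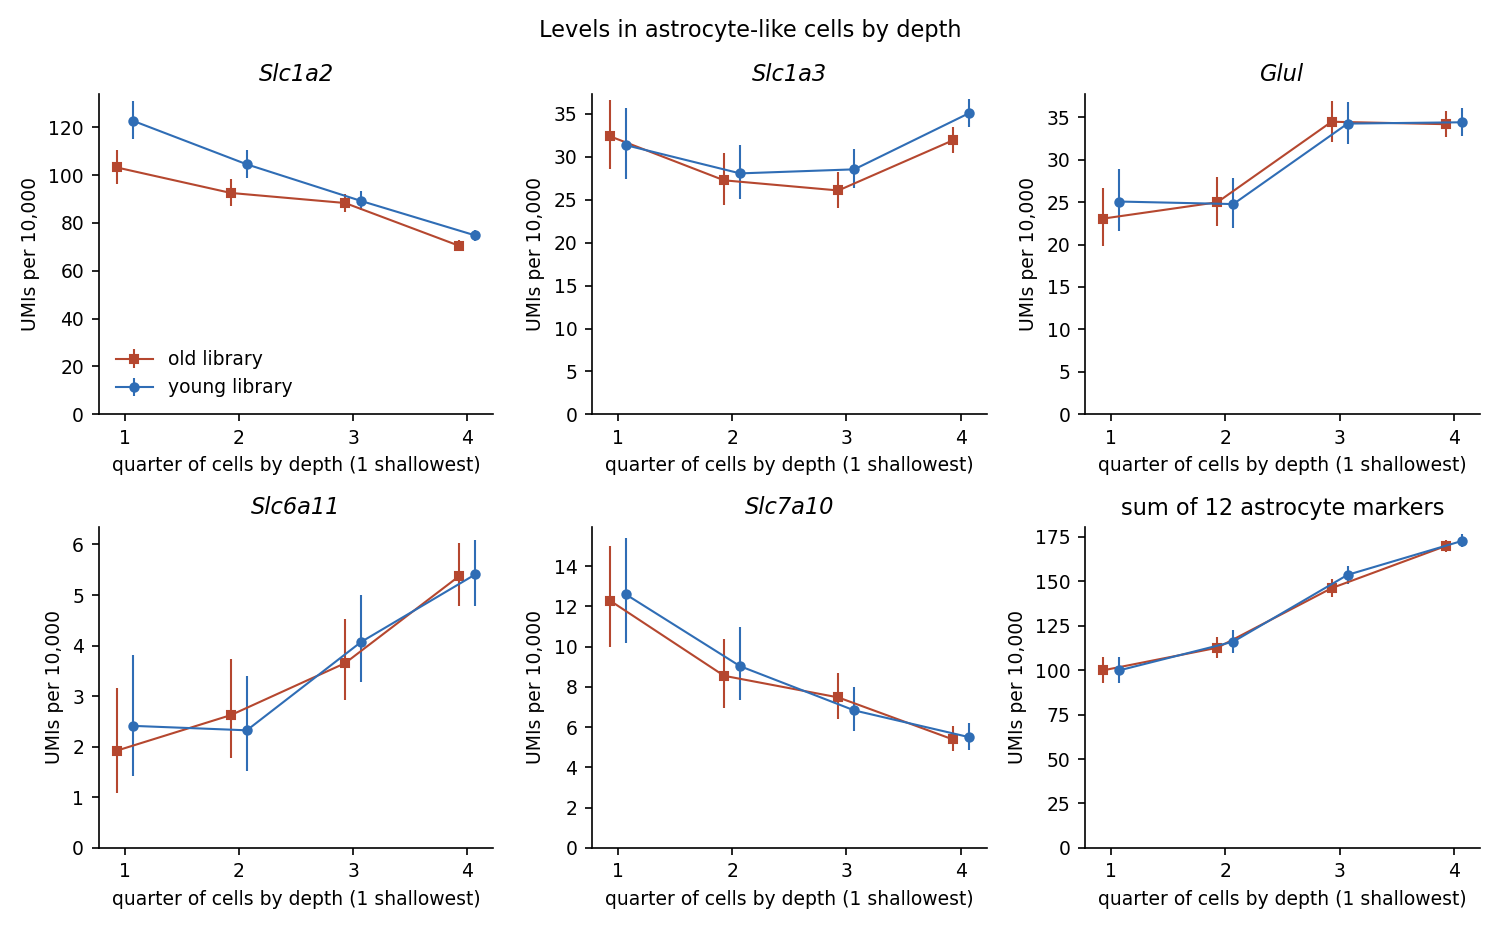
Level (UMIs per 10,000) of the 5 genes and of the sum of 12 astrocyte markers in 4 groups of astrocyte-like cells ordered by depth, for the old (squares) and young (circles) libraries, with exact Poisson 95% intervals. In young cells Slc1a2 runs down to 74.8 and Slc7a10 to 5.51 in the deepest group, while Slc6a11, Glul and the marker sum are higher in the deepest than in the shallowest group.

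Between the libraries the 5 genes were compared over the 292 barcodes that were astrocyte-like in both. The intervals of these ratios, here and in the other classes, treat old and young counts as independent. The counts come from the same barcodes, so these intervals do not measure the error of the ratios. Slc1a2 had 79.9 in old and 85.4 in young rows, a ratio of 0.935 (0.905 to 0.965). Slc1a3 had 30.1 in old and 31.9 in young rows, a ratio of 0.941 (0.893 to 0.992). Glul had 32.3 and 32.2, a ratio of 1.00 (0.953 to 1.06), Slc6a11 4.37 and 4.52, a ratio of 0.967 (0.840 to 1.11), and Slc7a10 6.76 and 6.88, a ratio of 0.983 (0.878 to 1.10). None of the 5 was 2-fold apart, whereas 0.142% of 9173 genes tested were. The Slc1a2 count of a barcode differed by at most 12 UMIs between the libraries, and that of Slc7a10 was the same in 59.2% of the 292 barcodes.

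In other classes the differences lay where the levels were low. In microglia-like cells (365 barcodes) Slc7a10 had 0.0805 in old and 0.0277 in young rows, a ratio of 2.91 (1.28 to 7.43) on 26 and 8 UMIs. Slc1a2 had 1.15 in old and 0.820 in young rows, a ratio of 1.40 (1.19 to 1.66). The summed astrocyte markers of the same microglia-like barcodes had 2.17 in old and 1.33 in young rows, a ratio of 1.64 (1.44 to 1.86). Slc1a3 and Glul in these cells had ratios of 1.02 (0.908 to 1.15) and 1.02 (0.975 to 1.08). In mature oligodendrocyte-like cells Slc1a2 had 1.41 in old and 0.958 in young rows, a ratio of 1.47 (1.08 to 2.02), and the astrocyte markers, mostly Htra1 in young rows, had a ratio of 1.37 (1.14 to 1.66). On the log2 scale with the pseudocount none of these was 2-fold apart, and the background was 0.172% of genes in microglia-like and 0.238% in mature oligodendrocyte-like cells. In the other 4 classes compared every ratio of the 5 genes that could be computed had an interval that included 1. Among them Glul had 1.30 in old and 0.850 in young neuroblast-like rows, a ratio of 1.52 (0.981 to 2.40), and Slc1a2 had 1.70 in old and 1.10 in young pericyte-like rows, a ratio of 1.54 (0.909 to 2.67). None with 20 UMIs was 2-fold apart there, against 0.231% of all genes in precursor-like cells, 0.217% in neuroblast-like cells, 0.188% in endothelial-like cells and 0.218% in pericyte-like cells.

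**Figure D5:**
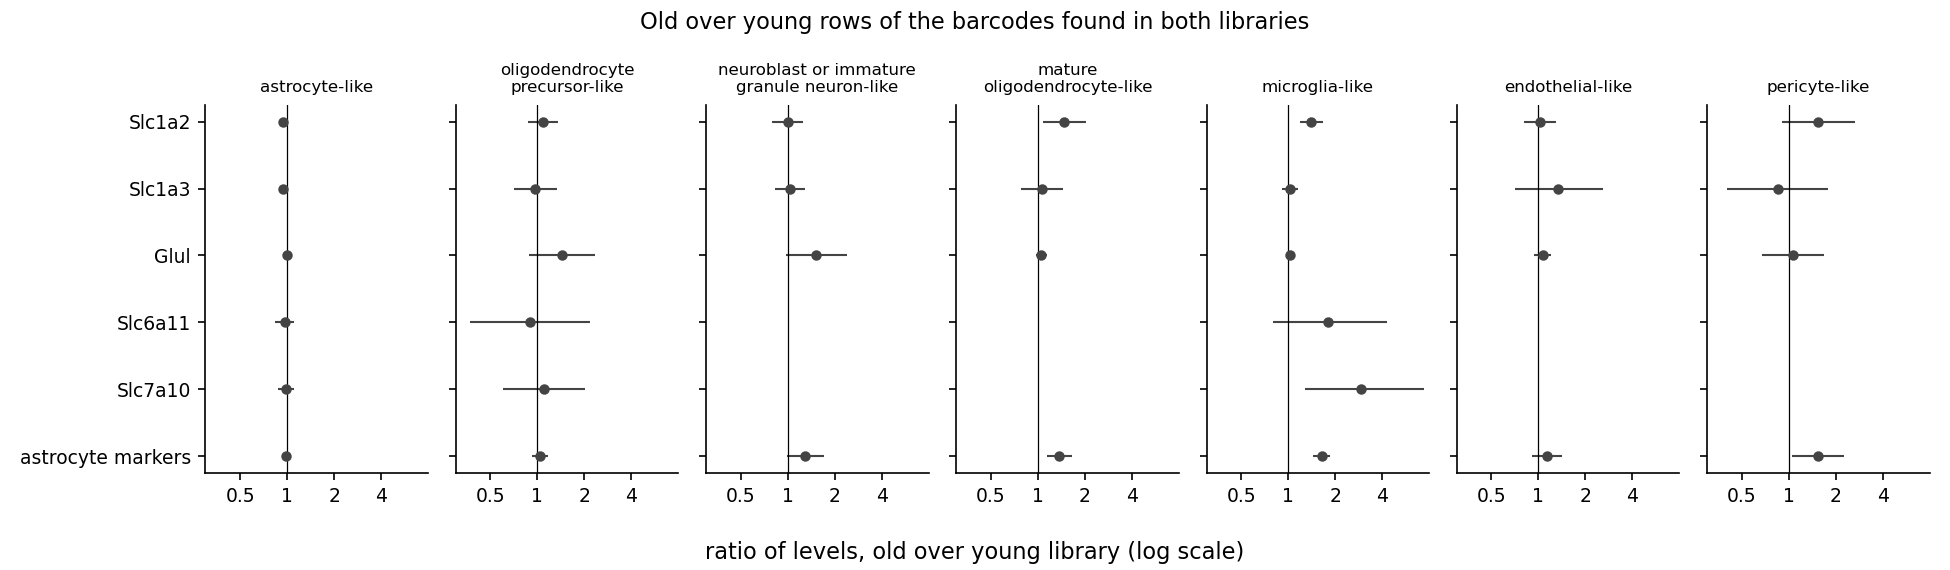
Ratio of levels of the old over the young library (log scale) for the 5 genes and the sum of astrocyte markers, over barcodes of a class in both libraries, in 7 classes. Points have exact 95% intervals that treat old and young counts as independent, although the barcodes are the same. They are drawn where both libraries together had at least 20 UMIs. Astrocyte-like cells lie at 0.935 to 1.00 for the 5 genes, and in microglia-like cells Slc1a2 (1.40), Slc7a10 (2.91) and the markers (1.64) lie above 1.

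The counting of some of these genes could be touched by neighbours and copies. Of the 31-base stretches in the last 500 bases of Glul transcripts, 18.4% also occur in other genes, mostly the pseudogene Glns-ps1 (13.9%) and AC134576.3 (11.5%), so part of the Glul counts could be split or lost. For the other 4 genes this share was 2.6% or less. Lrp3 overlaps the 3' end of Slc7a10 on the other strand and had 0.166 in astrocyte-like and 0.851 in oligodendrocyte precursor-like young cells. The strand setting of the counting is not given in the sources used here. Mixing of the precursor-like Slc7a10 and Lrp3 counts was not tested.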

How the data were processed

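The deposited table holds both libraries of single-cell RNA-seq, with cells in rows. The deposited values are natural log values of UMIs per 10,000 with 1 added, a unit inferred from the numbers themselves. After undoing the log, 100% of values were whole multiples, to within 0.01, of the cell's smallest step, and these UMIs were summed. Per the submitters' processing notes, Cell Ranger 5.0.0 and mm10 were used. No gene annotation, cell filter or strand setting is given in the sources used here.

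All 3893 cells of both libraries were clustered together, without integration, with Scanpy 1.11.5 and igraph 0.11.9 (Python 3.11.15, numpy 2.4.6, scipy 1.17.1, pandas 2.3.3, matplotlib 3.10.9). The 5 genes and the pathway list were left out of the 2000 variable genes, 30 components and 15 neighbours were used, and Leiden resolution was 1. Clusters were called after a class from 168 markers of 22 classes. A marker counted with a UMI in 25% of cells and a level 4 times that of the other cells, and 3 were needed. Shallow clusters with none of the markers of their class among the 10 leading genes stayed unnamed. Clusters with a median mitochondrial share below 1% in both libraries were set aside, a rule taken up after earlier results were seen. Leading genes were ranked with a pseudocount of 1. Scrublet, as run within Scanpy, called 23 old and 37 young cells doublets, which were kept.

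A level is the summed UMIs of a class over its total, with an exact Poisson interval. Shares have exact Clopper-Pearson intervals, and ratios exact conditional binomial ones. Log2 ratios use a pseudocount of 0.1. Genes with at least 20 UMIs were compared at 4-fold between classes and 2-fold between libraries. A count of 0 was taken to allow 3 UMIs. All 5 genes are described. Pathway genes are named if past 4-fold or at 1 UMI per 10,000 or more in a brain class, and the 3 most alike genes are named for each. Some pathway genes are counted but not reported here by name. The members, marker and pathway lists were chosen with earlier results of these data known. The 4-fold call was tried on simulated data with planted changes, and the outcome is not given here. Alternatives were other resolutions, clustering with the 5 genes and pathway genes allowed, doublets removed, old rows, means over cells, another pseudocount, no filter on low counts, and thinned cells. Gene positions and overlaps are from GENCODE M21 (GRCm38). Promoter windows are from RefSeq (GRCm38.p6), and protein sequences were not used here.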

Additional observations from a re-analysis of the deposited data

How the results depend on the processing

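No paired analysis was possible because each age has 1 library, so no replicate block could be fitted, and the barcodes shared by the libraries are not replicates. Of 133 recomputed values 99 stayed within the counting interval of the value reported (a count of genes within 1.5 times), 34 moved beyond it and 0 changed direction. Only the log2 ratios among these values have a direction, so the last count says nothing about levels, shares or counts of genes.

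With old library rows the levels in astrocyte-like cells were 80.1 for Slc1a2 and 29.99 for Slc1a3, and the log2 ratios to other brain cells were 5.28 for Slc1a2, 1.74 for Glul and 4.83 for Slc7a10. With a mean over cells the levels of Slc1a2, Slc1a3, Glul, Slc6a11 and Slc7a10 were 98.5, 30.8, 29.2, 3.53 and 8.51, and the log2 ratios of Slc1a2, Slc6a11 and Slc7a10 were 5.47, 4.21 and 5.36. At resolution 2 the 171 shallow young cells formed a cluster that stayed unnamed by the rule on shallow clusters. The levels of Slc1a2, Glul, Slc6a11 and Slc7a10 were then 77.3, 37.3, 5.07 and 5.64. The log2 ratios of Slc1a2, Slc1a3, Glul, Slc6a11 and Slc7a10 were 3.54, 3.38, 1.93, 4.03 and 3.15, and the shares of Glul, Slc6a11 and Slc7a10 were 99.3%, 76.1% and 80.6%. Counting that cluster as astrocyte-like, an alternative added after seeing the data, kept every value within its interval.

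A pseudocount of 1 gave log2 ratios of 4.999, 3.56, 1.72, 2.33 and 2.83 in the same order of the 5 genes, and 2 pathway genes past 4-fold, against 10. In every alternative Slc1a2, Slc1a3, Slc6a11 and Slc7a10 were past 4-fold and Glul was not. Without doublets the log2 ratio of Slc1a2 was 5.68. Thinning to 2000 UMIs gave shares of 100% for Slc1a2 and 97.3% for Slc1a3. Resolution 0.5, and clustering with the 5 genes and the pathway genes allowed, moved no value beyond its interval. Of the 5 genes only 3 were then among the variable genes used. The log2 ratios of old over young rows stayed within their intervals in all 15 recomputed values. Low counts limit Slc6a11 and Slc7a10 most, as the named young classes other than astrocyte-like and precursor-like held 10 UMIs or fewer. These classes were not shallower, as young microglia-like cells had a median depth of 7914 UMIs, against 1912 in astrocyte-like cells. The 10 Slc6a11 UMIs of young microglia-like cells gave a level of 0.0339 (0.0163 to 0.0624).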

Other observations

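The set-aside cells with almost no mitochondrial transcripts had low levels of all 5 genes, with 1 exception. Their young clusters had Slc1a3 levels of 0.188 or less, except a cluster of 99 young cells at 2.03, where 45.5% of cells had a Slc1a3 UMI. That cluster was led by Twist1, Lgals1, Nr2f1, Fbln1, Tpm1 and Col1a2, the last a collagen gene, and had 2 of 6 fibroblast markers. It was given no cell type name, by the rule on the mitochondrial share. Its Slc1a2 and Glul levels were 0.0999 and 0.387.

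A cluster of 5 T or NK cell-like barcodes at resolution 2 had Slc1a2 levels of 18.9 in the old and 21.6 in the young library, with a UMI in 80% and 40% of its cells. It was singled out after its values were seen. Its summed astrocyte markers had 13.3 in the old and 15.4 in the young library.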
